A study of Mus musculus with 80 samples.

Results

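The genes described here encode the regulators that choose splice sites in mouse liver, namely the SR proteins (Srsf genes), the heterogeneous nuclear ribonucleoproteins (Hnrnp genes, hnRNPs), the CDC2-like kinases (Clk genes, CLKs) and the regulators of the Mbnl, Ptbp, Esrp and Rbfox groups. Their rows were picked by symbol from the table of counts per gene. A symbol had to begin with Srsf and a digit or with Hnrnp, or be one of Clk1 to Clk4, Mbnl1 to Mbnl3, Ptbp1 to Ptbp3, Esrp1, Esrp2 and Rbfox1 to Rbfox3. It could not carry the pseudogene suffix -ps, and the row had to hold at least 10 counts in at least 4 libraries. Of 50 rows with such a symbol, 3 carried the suffix (Srsf3-ps, Hnrnpa1l2-ps and Hnrnpa1l2-ps2) and 3 stayed under the count minimum, which left 44 genes of the 78275 rows of the table. They are 10 SR proteins, 20 hnRNPs, 4 CLKs and 10 other regulators. The closest to the minimum among them were Esrp1, which reached 10 counts in 25 libraries, and Mbnl3, which did so in 74. The other 42 reached it in all 80 libraries. Just outside stood Rbfox1, with 10 counts in 1 library, and Srsf12 and Srsf19 with 10 counts in 0. All 44 genes passed the filter on low counts and were tested.

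Livers were taken from C57BL/6J mice, an inbred laboratory strain, aged 8 to 12 weeks. All mice had been moved from a light-dark cycle into constant darkness, so that time is given as circadian time (CT, in hours). Control mice kept their chow throughout, and fasted mice lost it at CT10. Every 4 h from CT8 to CT44, 2 males and 2 females of each treatment were killed, which gave 10 times, 4 libraries for each treatment and time, and 80 libraries in all. Both groups still had food at CT8. The first fasted mice, at CT12, had gone without it for 2 h and the last, at CT44, for 34 h. Each library is the polyadenylated RNA of 1 piece of liver lobe from 1 mouse. The titles were used for grouping. The detailed labels contradict them in sex for 40 libraries, and in treatment also for 40. Among fasted livers at CT40, 3 exon columns fit a gene column other than that of their own name. Which of the tables bears the right sex there was not tested, and gene values follow the gene table.

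SR proteins bind exonic enhancers and, through a tail rich in arginine and serine, help the spliceosome to recognise an exon. CLKs phosphorylate that tail and thereby set where SR proteins sit and how active they are, while hnRNPs bind silencers and often oppose them. Many genes of both families limit themselves through a poison exon, a conserved exon with a premature stop codon whose inclusion sends the transcript to nonsense-mediated decay. In liver the splicing machinery is known to respond to feeding, insulin and the daily swing of body temperature, to which the CLKs are sensitive.

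Total counts ran from 25534901 to 59927771 per library, with a median of 42303883. A single ribosomal RNA gene, Rn18s-rs5, held 31.3% of the counts in 1 control female at CT8 and at most 4.88% in the other 79 libraries. It was lower with fasting (-0.67 on the log2 scale), with a median of 1084 CPM (counts scaled to the TMM-adjusted library size in the usual unit) in the 36 control libraries from CT12 to CT44 and 779 CPM in the 36 fasted ones, and its part in the changes below was not tested. Of the 7 hepatocyte markers 4 rose and 2 fell, and they summed to 64893 to 116221 CPM in controls and to 78889 to 133595 CPM in fasted livers. Of 7 Kupffer cell markers 6 fell and 0 rose (summed level 239.7 to 836 CPM in controls, 163 to 521 CPM in fasted livers), of 7 stellate cell markers 5 fell and 1 rose (207 to 379 and 171 to 372 CPM), and of 7 endothelial markers 3 fell and 3 rose (340.1 to 504 and 346 to 555 CPM). Of 6 cholangiocyte markers 5 fell and 0 rose (24.7 to 66.3 and 6.78 to 50.7 CPM), of 7 lymphocyte markers 4 fell and 0 rose (10.5 to 48.3 and 8.81 to 29.3 CPM), and of 5 erythroid markers 2 fell and 0 rose (53.4 to 287 and 33.03 to 271 CPM). None of these markers was at 0 in every library, and their part in the changes below was not tested. In whole liver, fewer cells of a type and less RNA per cell cannot be told apart. Except in the rhythm tests, the p-values measure the spread between mice of 1 treatment, time and sex, of which there are 2. This spread is estimated over all groups together. In the fasting tests on the exon table the 4 fasted livers at CT40 form 1 group, so there it also takes in a difference between the sexes. In the rhythm tests the spread also takes in departures of the times from the fitted curve.

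The results on exon usage below turn on a few exons, and their sequences are shown here to make visible what is being counted. The first set holds poison exons. Each line gives 15 bases of the exon before and then the poison exon up to its premature stop codon, which is in capitals. They belong to the transcripts Srsf3-201 (exon 4 of 7, chr17:29039454-29039909, plus strand), Srsf7-203 (exon 4 of 9, chr17:80204622-80205081, minus strand) and Hnrnpl-213 (exon 6 of 13, chr7:28817335-28817404, plus strand), all annotated for nonsense-mediated decay.
Srsf3 poison exon: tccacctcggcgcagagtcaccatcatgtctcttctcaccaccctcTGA
Srsf7 poison exon: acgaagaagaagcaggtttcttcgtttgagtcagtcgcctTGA
Hnrnpl poison exon: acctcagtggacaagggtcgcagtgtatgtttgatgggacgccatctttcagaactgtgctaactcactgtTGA
In these transcripts the reading frame ends 34, 28 and 59 bases into the exon, and 3, 5 and 7 exon junctions follow that exon. The whole exons are 456, 460 and 70 bases long.

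The other set holds alternative exons of coding transcripts, in capitals, between 15 bases of each neighbour. They are exon 6 of 9 and exon 8 of 9 of Mbnl2-201 (chr14:120395712-120395765 and chr14:120404638-120404732, plus strand) and exon 4 of 13 of Clk1-201 (chr1:58420121-58420211, minus strand).
Mbnl2 exon 6: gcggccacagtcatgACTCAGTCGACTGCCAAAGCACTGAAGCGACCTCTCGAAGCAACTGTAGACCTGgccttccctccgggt
Mbnl2 exon 8: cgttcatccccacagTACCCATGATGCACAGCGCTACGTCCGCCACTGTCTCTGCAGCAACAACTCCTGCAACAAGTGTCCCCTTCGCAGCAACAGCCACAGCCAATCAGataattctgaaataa
Clk1 exon 4: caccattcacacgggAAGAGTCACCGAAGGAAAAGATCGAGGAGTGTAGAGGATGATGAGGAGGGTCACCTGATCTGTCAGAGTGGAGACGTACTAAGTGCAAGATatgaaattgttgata
Mbnl2 exon 6 has 54 bases, a multiple of 3, so that skipping it keeps the frame. Mbnl2 exon 8 has 95 bases and Clk1 exon 4 has 91, which are no multiples of 3. The sequences and positions come from GENCODE M21 transcripts on the GRCm38 build, whereas the deposited tables rest on GRCm39 and name exon bins by number alone.

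Fasting moved most of these genes a little. In the mean of CT12 to CT44, 30 of 44 passed the test (edgeR's quasi-likelihood test, Benjamini-Hochberg adjusted p under 0.05), 22 of them higher and 8 lower in fasted livers. Among all 21187 genes tested 62.5% passed, 29.5% higher and 32.9% lower, so that the share of splicing regulators that passed lies near that of the transcriptome. The median change was 0.05 on the log2 scale over the 44 genes and -0.02 over all genes. In 43 of the 44 the change was under 0.5 in size. Of the SR proteins 4 rose and 3 fell, of the hnRNPs 10 rose and 5 fell, of the CLKs 3 rose and 0 fell, and of the other regulators 5 rose and 0 fell.

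**Figure D1:**
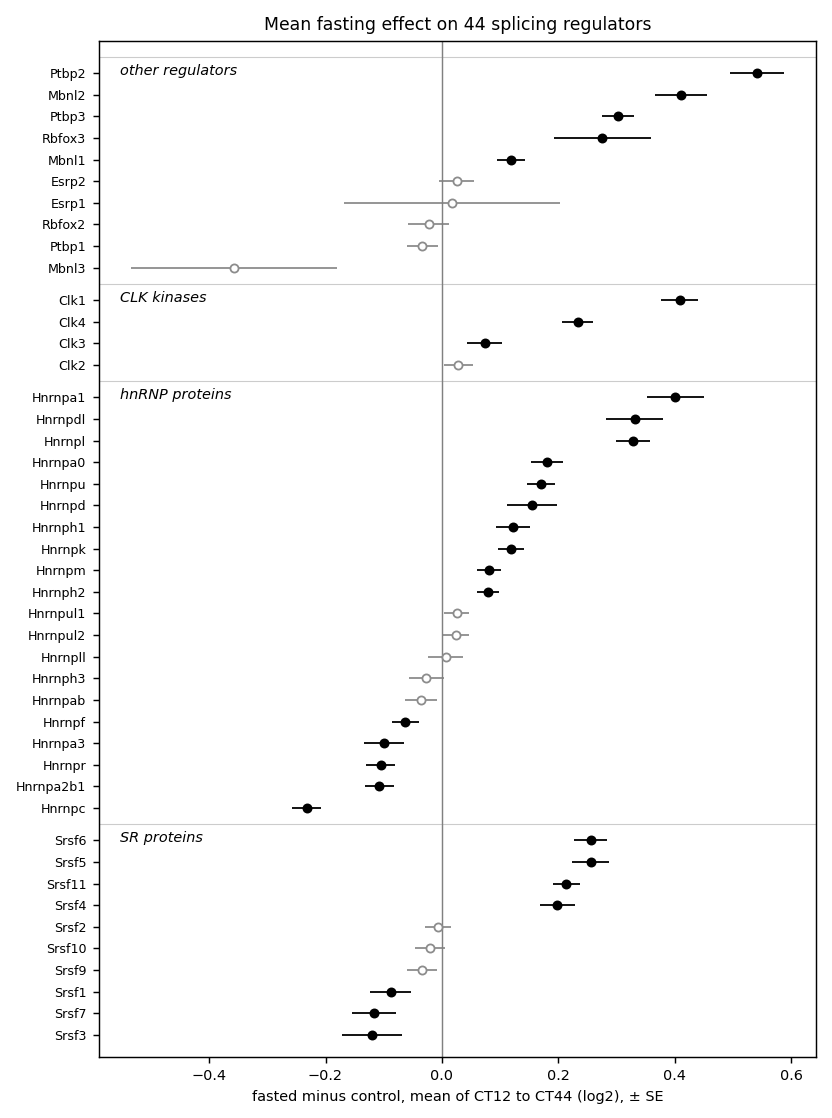
Mean fasting effect on each of the 44 splicing regulators by family. The horizontal axis is the log2 difference fasted minus control averaged over CT12 to CT44, with the standard error as a bar, and filled points passed the test at an adjusted p under 0.05 (36 libraries per treatment). The points run from -0.36 (Mbnl3, not passing) to 0.54 (Ptbp2), and most lie close to 0.

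Among the SR proteins, Srsf6 and Srsf5 showed the largest rises. Srsf6, which binds exonic enhancers and whose own transcript carries a poison exon, ranged over 88.03, 105 and 121 CPM (lowest, median and highest of 36) in controls and 86.8, 121 and 168 CPM in fasted livers. Its mean difference was 0.26 ± 0.03 (log2 ± SE, adjusted p = 6.81e-11). At CT20, 10 h into the fast, Srsf6 stood at 113 and 105 CPM in males and 111 and 89.9 CPM in females in controls and at 151 and 159 CPM in males and 168 and 165 CPM in females in fasted mice. All 4 fasted livers lay above all 4 controls at that time, by 0.62 ± 0.08 (adjusted p = 1.04e-07). By CT28 the 2 groups overlapped again, with a difference of 0.01 ± 0.08 (adjusted p = 0.980), before the gap reopened at CT40 and CT44.

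Srsf5, an SR protein that responds to insulin in other cells, ranged over 137, 176 and 270.3 CPM in controls and 158, 217 and 295 CPM in fasted livers, a mean difference of 0.26 ± 0.03 (adjusted p = 2.11e-09). At CT40 its control values were 145 and 137 CPM in males and 155 and 169 CPM in females and its fasted values 202 and 203 CPM in males and 250.2 and 291 CPM in females. The groups did not overlap there, and the difference was 0.63 ± 0.10 (adjusted p = 8.24e-07). Srsf11, an SR-related protein that contacts the 3′ splice site factor U2AF, rose by 0.21 ± 0.02 (adjusted p = 2.69e-11) with a higher fasted mean at all 9 times. Srsf4, the longest-tailed SR protein, rose by 0.20 ± 0.03 (adjusted p = 2.52e-07), and its largest difference came early. At CT16 it stood at 35.9 and 34.9 CPM in males and 43.3 and 32.7 CPM in females in controls and at 56.7 and 46.2 CPM in males and 61.4 and 60.02 CPM in females in fasted mice, without overlap (0.61 ± 0.09, adjusted p = 2.29e-06).

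The SR proteins that fell did so by less. Srsf3, the smallest SR protein and an adaptor for mRNA export, ranged over 32.7, 47.8 and 58.4 CPM in controls and 29.8, 43.8 and 69.2 CPM in fasted livers, and fell by 0.12 ± 0.05 (adjusted p = 0.0421). Srsf3 passed at 0 of the 9 single times. Its widest gap was at CT16, with 45.2 and 50.1 CPM in males and 54.96 and 51.5 CPM in females in controls and 40.6 and 36.8 CPM in males and 44.5 and 33.2 CPM in females in fasted mice. The groups did not overlap at that time, yet the difference of -0.38 ± 0.16 missed the threshold (adjusted p = 0.0743). Srsf3 has a processed pseudogene, Srsf3-ps, which reached 10 counts in 72 libraries. Whether reads were divided between them was not tested, so the counts of Srsf3 are uncertain. Its mean fall no longer passed with DESeq2 (-0.11, adjusted p = 0.0598).

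Srsf7, a zinc-knuckle SR protein that also serves mRNA export, ranged over 21.6, 29.3 and 39.1 CPM in controls and 19.5, 26.4 and 37.6 CPM in fasted livers, with a mean difference of -0.12 ± 0.04 (adjusted p = 0.00643). At CT36 it stood at 29.9 and 37.8 CPM in males and 29.3 and 34.7 CPM in females in controls and 24.3 and 25.8 CPM in males and 22.2 and 27.9 CPM in females in fasted mice, again without overlap (-0.40 ± 0.11, adjusted p = 0.00710). Without CT36 the mean fall of Srsf7 shrank to -0.08 (adjusted p = 0.0730). Srsf1, the prototype of the family, fell by 0.09 ± 0.03 (adjusted p = 0.0251), which did not pass under upper-quartile scaling (-0.08). The falls of Srsf1 and Srsf3 passed in 1 of the 4 fits that each left out a replicate. Srsf2, a speckle protein, Srsf9 and Srsf10, a splicing repressor when dephosphorylated, gave -0.01 ± 0.02, -0.03 ± 0.03 and -0.02 ± 0.03 and did not pass.

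Of the hnRNPs, Hnrnpa1 and Hnrnpdl had the largest mean rises. Hnrnpa1, a shuttling protein that binds splicing silencers, ranged over 39.1, 52.2 and 66.9 CPM in controls and 44.5, 66.9 and 142 CPM in fasted livers, a mean difference of 0.40 ± 0.05 (adjusted p = 1.38e-09). At CT16 the difference was -0.01 ± 0.15 (adjusted p = 0.984), and from CT28 on the test passed at every time. At CT40 control livers held 50.4 and 44.4 CPM in males and 49.7 and 52.5 CPM in females and fasted livers 69.9 and 59.2 CPM in males and 84.8 and 142 CPM in females, which did not overlap (0.80 ± 0.15, adjusted p = 2.7e-05). The highest of these, fasted female 2, was also the highest of the 4 fasted livers at CT40 for Ptbp2, Hnrnpdl and Srsf5. Sex and number at CT40 are those of the gene table, from which 3 exon columns differ. Without female replicate 2 the Hnrnpa1 difference at CT40 was 0.62 (adjusted p = 5.77e-05). Hnrnpa1 has processed copies across the genome, and since whether reads were divided among them was not tested, its level is uncertain.

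Hnrnpdl, a close relative of Hnrnpd, ranged over 41.3, 52.6 and 73.2 CPM in controls and 45.5, 62.1 and 141 CPM in fasted livers, and rose by 0.33 ± 0.05 (adjusted p = 1.26e-07). At CT28 control values were 45.1 and 61.3 CPM in males and 57.5 and 59.7 CPM in females, and fasted values 68.8 and 59.4 CPM in males and 115 and 110.3 CPM in females. The fasted females stood far above the rest there and 1 fasted male lay within the controls (0.61 ± 0.15, adjusted p = 0.00218). Hnrnpl, which binds CA repeats and limits its own level through a poison exon, rose by 0.33 ± 0.03 (adjusted p = 1.24e-13) and passed at 7 of 9 times, more than any other of the 44. At CT24 it stood at 89.2 and 87.9 CPM in males and 97.9 and 90.8 CPM in females in controls and 133 and 126 CPM in males and 124 and 119.7 CPM in females in fasted mice, without overlap (0.46 ± 0.09, adjusted p = 7.78e-05).

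Smaller rises covered proteins of varied binding tastes. Hnrnpa0 and Hnrnpd, which bind AU-rich elements of mRNA tails, rose by 0.18 ± 0.03 and 0.16 ± 0.04 (adjusted p = 1.85e-07 and 0.00160). Hnrnpd differed most at CT44, with 35.2 and 31.4 CPM in males and 35.7 and 39.4 CPM in females in controls and 42.7 and 47.5 CPM in males and 75.2 and 44.7 CPM in females in fasted mice (0.56 ± 0.13, adjusted p = 0.000545). Even the lowest fasted liver lay above the highest control, and fasted female 1 stood apart from the other 3. Without female replicate 1 that difference was 0.31 (adjusted p = 0.0269). Hnrnpu, a nuclear scaffold protein, rose by 0.17 ± 0.02, the poly(C)-binding Hnrnpk by 0.12 ± 0.02, the G-run binders Hnrnph1 and Hnrnph2 by 0.12 ± 0.03 and 0.08 ± 0.02, and Hnrnpm by 0.08 ± 0.02, each with an adjusted p of at most 0.000722.

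Hnrnpc had the largest fall among the genes that passed. Hnrnpc binds uridine tracts and keeps cryptic exons out of mRNA. It ranged over 58.7, 85.6 and 103 CPM in controls and 52.8, 68.2 and 94.7 CPM in fasted livers, a mean difference of -0.23 ± 0.03 (adjusted p = 5.37e-11), and its fasted mean was lower at all 9 times. At CT40 it stood at 86.1 and 87.2 CPM in males and 92.3 and 93.9 CPM in females in controls and 72.2 and 67.3 CPM in males and 60.6 and 62.3 CPM in females in fasted mice, a gap of -0.46 ± 0.08 without overlap (adjusted p = 4.2e-06). Hnrnpa2b1, a close relative of Hnrnpa1, ranged over 216, 251 and 313 CPM in controls and 203, 231 and 296 CPM in fasted livers, and fell by 0.11 ± 0.03 (adjusted p = 0.000330). At CT20, where its difference was widest, the groups overlapped (255 and 268 CPM in males and 313 and 243 CPM in females in controls, 226 and 228 CPM in males and 247 and 256 CPM in females in fasted mice) and the test did not pass (-0.18 ± 0.08, adjusted p = 0.0699).

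Hnrnpr, Hnrnpa3 and Hnrnpf fell, with mean differences of -0.11 ± 0.02, -0.10 ± 0.04 and -0.06 ± 0.02 (adjusted p = 0.000215, 0.0126 and 0.0159). Hnrnpab, Hnrnph3, Hnrnpll, which steers splicing in activated lymphocytes, Hnrnpul1 and Hnrnpul2 lay between -0.04 and 0.03 and did not pass. Close relatives did not always go the same way, as Hnrnpa1 rose while Hnrnpa2b1 and Hnrnpa3 fell, and Hnrnph1 and Hnrnph2 rose while Hnrnpf fell. The fall of Hnrnpf did not pass under upper-quartile scaling (-0.05).

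All 4 kinases had a higher mean in fasted livers, and 3 of them passed. Clk1 ranged over 41.1, 54.9 and 65.1 CPM in controls and 55.4, 71.4 and 95.4 CPM in fasted livers, and rose by 0.41 ± 0.03 (adjusted p = 1.59e-15) with a higher fasted mean at all 9 times. At CT20 control livers held 44.2 and 48.9 CPM in males and 51.9 and 60.8 CPM in females and fasted livers 81.6 and 84.2 CPM in males and 84 and 81.3 CPM in females, a difference of 0.69 ± 0.09 (adjusted p = 1.04e-07). The 4 fasted values lay close together and far above the controls. At CT28, CT32 and CT36 the Clk1 difference was 0.19 ± 0.09, 0.21 ± 0.09 and 0.17 ± 0.09, none of which passed, and at CT40 it was 0.57 ± 0.09 (adjusted p = 3.65e-06).

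Clk4, the closest relative of Clk1, ranged over 28.5, 37.8 and 46.4 CPM in controls and 34.4, 43.4 and 61.1 CPM in fasted livers, and rose by 0.23 ± 0.03 (adjusted p = 3.09e-10). It followed the same course, with 0.42 ± 0.08 at CT20, 0.00 ± 0.08 at CT32 and 0.49 ± 0.08 at CT44, of which CT20 and CT44 passed. At CT44 Clk4 stood at 33.3 and 33.7 CPM in males and 39.6 and 36.9 CPM in females in controls and 49.4 and 50.3 CPM in males and 53.04 and 48.7 CPM in females in fasted mice, without overlap. Clk3 ranged over 35.5, 42.4 and 50.5 CPM in controls and 30.9, 45.5 and 60.01 CPM in fasted livers, a mean difference of only 0.07 ± 0.03 (adjusted p = 0.0308), and with females alone the sign turned to -0.01 (adjusted p = 0.901). At CT20, the single time at which Clk3 passed, it stood at 39.5 and 43.7 CPM in males and 40.96 and 44.1 CPM in females in controls and 57.3 and 51.6 CPM in males and 40.8 and 48 CPM in females in fasted mice (0.23 ± 0.09, adjusted p = 0.0436), and fasted female 1 lay within the controls.

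Clk2, a kinase known to be induced by feeding and insulin in liver and to restrain gluconeogenesis, did not pass in the mean (0.03 ± 0.02, adjusted p = 0.333). It ranged over 18.1, 20.7 and 24.9 CPM in controls and 15.8, 21.2 and 31.7 CPM in fasted livers. At CT16, 6 h into the fast, it was lower, with 24.02 and 22.1 CPM in males and 22.2 and 20.7 CPM in females in controls and 19.4 and 18.8 CPM in males and 17.8 and 15.8 CPM in females in fasted mice. The groups did not overlap (-0.31 ± 0.07, adjusted p = 0.00128), whereas at CT40 the difference had the other sign (0.20 ± 0.07, adjusted p = 0.0314).

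**Figure D2:**
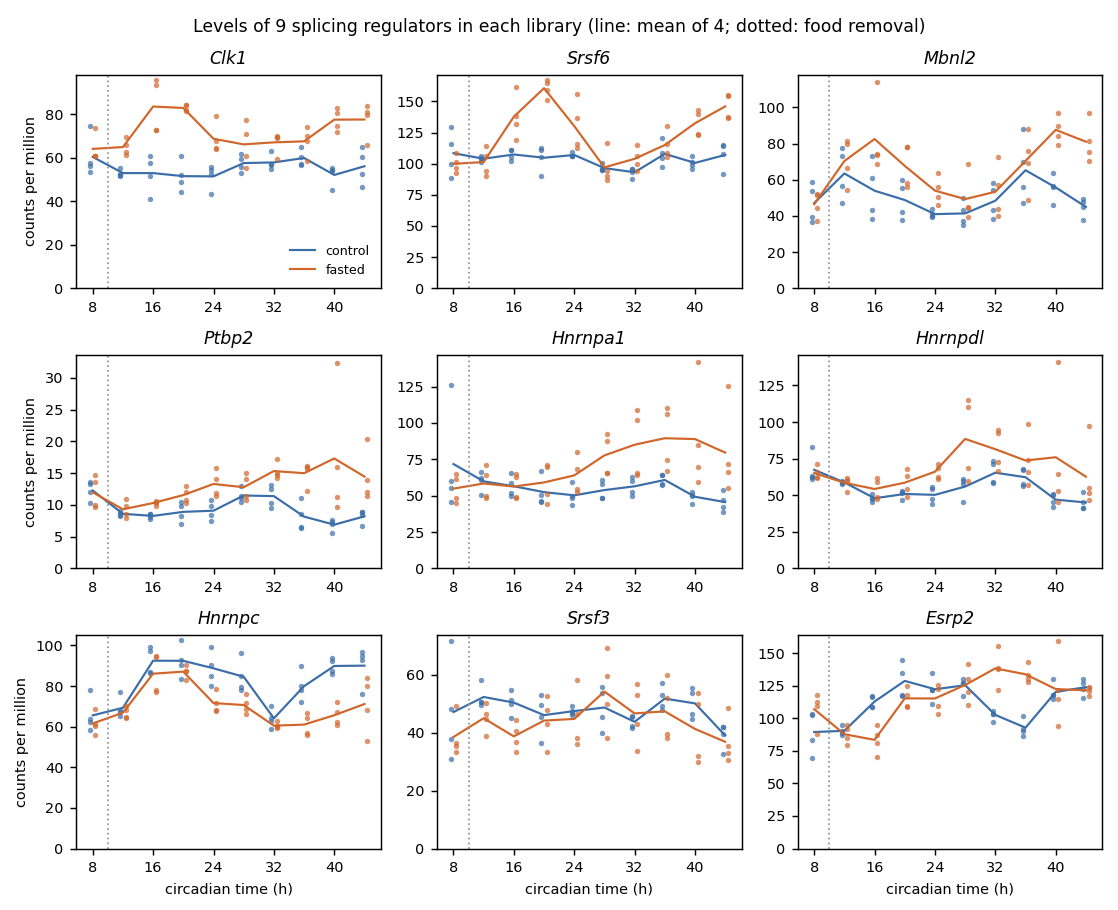
Levels of 9 of the genes in every library. The vertical axis is the level in CPM and the horizontal axis circadian time in hours, points are single livers (blue control, orange fasted), lines are means of 4 and the dotted line marks food removal at CT10. Clk1 and Srsf6 part at CT16 and CT20, Hnrnpa1 from CT28 on, Hnrnpc lies lower in fasted livers, and the Esrp2 curves cross.

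Among the other regulators, Ptbp2 had the largest mean rise of all 44. Ptbp2 is the neuronal relative of the polypyrimidine tract-binding protein Ptbp1, and outside neurons most of its transcripts are spliced into a decayed form. It ranged over 5.62, 8.58 and 13.1 CPM in controls and 7.98, 12.1 and 32.3 CPM in fasted livers, and rose by 0.54 ± 0.05 (adjusted p = 3.75e-14). At CT40 control livers held 7.38 and 7.56 CPM in males and 5.62 and 6.99 CPM in females and fasted livers 11.3 and 9.71 CPM in males and 15.9 and 32.3 CPM in females, a difference of 1.21 ± 0.14 (adjusted p = 2.27e-09). The groups did not overlap, and fasted female 2 was again the highest. Without female replicate 2 the difference was 1.01 (adjusted p = 2.92e-06). Ptbp3, which is abundant in blood cells, rose by 0.30 ± 0.03 (adjusted p = 3.05e-13) and was higher at all 9 times, while Ptbp1 gave -0.03 ± 0.03 and did not pass.

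Mbnl2, a muscleblind protein that drives adult splice patterns, ranged over 35.3, 47.5 and 88.2 CPM in controls and 39.2, 69.6 and 114 CPM in fasted livers, and rose by 0.41 ± 0.04 (adjusted p = 4.39e-11). At CT44 it stood at 49.4 and 47.9 CPM in males and 38.02 and 44.7 CPM in females in controls and 75.4 and 97.2 CPM in males and 81.7 and 70.1 CPM in females in fasted mice, without overlap (0.85 ± 0.13, adjusted p = 1.53e-06). Its paralog Mbnl1 rose by 0.12 ± 0.02 (adjusted p = 4.96e-05). Mbnl3, of low count, gave -0.36 ± 0.18 and did not pass. Rbfox3, known as a marker of neurons and also of low count here, ranged over 0.407, 0.763 and 1.29 CPM in controls and 0.497, 0.939 and 1.43 CPM in fasted livers, and rose by 0.28 ± 0.08 (adjusted p = 0.00380), but passed at 0 single times. Rbfox2 and Esrp1 gave -0.02 ± 0.04 and 0.02 ± 0.19.

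Esrp2, an epithelial regulator that builds the adult splicing programme of hepatocytes, had a mean near 0 that covers opposite differences. Its mean difference was 0.03 ± 0.03 (adjusted p = 0.499). At CT16, however, it stood at 117 and 116 CPM in males and 109 and 109 CPM in females in controls and 81.1 and 94.5 CPM in males and 87.4 and 70.6 CPM in females in fasted mice, lower in all 4 fasted livers (-0.44 ± 0.09, adjusted p = 0.000320). At CT36 control livers held 102 and 91.96 CPM in males and 90.6 and 86.7 CPM in females and fasted livers 133 and 143 CPM in males and 128 and 130.3 CPM in females, higher in all 4 (0.53 ± 0.09, adjusted p = 2.15e-05). At CT32 it was higher as well (0.43 ± 0.09, adjusted p = 0.000607).

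Counted by time, the tests passed for 2 of 44 genes at CT12 (1.6% of all genes), 13 at CT16 (23.4%), 17 at CT20 (36.6%), 11 at CT24 (24.1%), 4 at CT28 (21%), 5 at CT32 (17.7%), 10 at CT36 (26.8%), 19 at CT40 (39.9%) and 17 at CT44 (39.4%). The counts were highest at CT20, CT40 and CT44, as they were among all genes. The genes that passed at CT12, 2 h into the fast, were Ptbp3 (0.30 ± 0.08, adjusted p = 0.0476) and Srsf2 (-0.26 ± 0.07, adjusted p = 0.0363). A fasting effect that itself differed between the 9 times was found for 21 of 44 genes, against 33.7% of all genes, with Esrp2 (adjusted p = 3.64e-06), Ptbp2 (0.000119) and Srsf6 (0.000163) at the head. This count fell to 12 without a filter on low counts, and to 2 and 1 without male replicate 1 or male replicate 2.

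**Figure D3:**
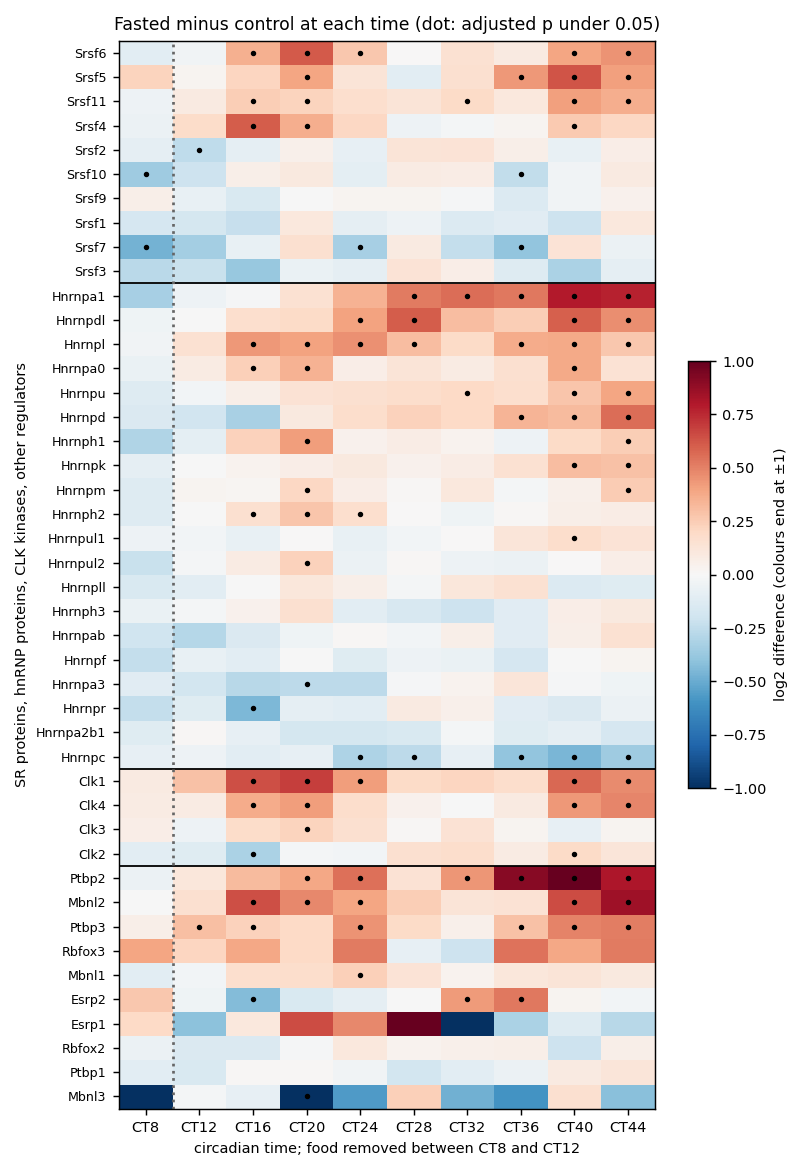
Log2 difference fasted minus control of each of the 44 genes (rows, by family) at each circadian time (columns, 4 libraries per treatment). Red is higher and blue lower in fasted livers, colours end at 1 and -1, and a dot marks an adjusted p under 0.05. Dots gather at CT16 to CT24 and at CT36 to CT44.

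At CT8, before any food was removed, Srsf7 and Srsf10 passed as lower in the mice that were to be fasted, as did 1.33% of all genes. Srsf7 stood at 23.9 and 28.3 CPM in males and 36.1 and 45.7 CPM in females in controls and 22.9 and 24 CPM in males and 24.3 and 22.96 CPM in females in the other group (-0.47 ± 0.11, adjusted p = 0.0242), and Srsf10 at 28.4 and 26.8 CPM in males and 36.4 and 39.1 CPM in females in controls and 27.7 and 27.6 CPM in males and 23.4 and 22.6 CPM in females in the other group (-0.35 ± 0.08, adjusted p = 0.0115). The highest value of each was the control female rich in ribosomal RNA. With that library left out, the differences at CT8 were still -0.38 for Srsf7 and -0.33 for Srsf10.

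The sexes differed in fed livers for 21 of the 44 genes, 20 of them higher in females (20.6% of all genes were) and 1 lower (18.6% of all genes). Without male replicate 1 the 21 genes became 5. Rbfox2, a widely expressed splicing regulator, ranged over 30.6, 41.8 and 56.3 CPM in 20 control females and 27.5, 30.2 and 37.9 CPM in 20 control males, a difference female minus male of 0.45 ± 0.05 (adjusted p = 1.24e-10). Mbnl2 went the other way, with 35.3, 41.4 and 56.3 CPM in females and 40.1, 57.5 and 88.2 CPM in males (-0.43 ± 0.06, adjusted p = 8.75e-08). Srsf5 ranged over 155, 207 and 270.3 CPM in females and 137, 161 and 216 CPM in males (0.27 ± 0.04, adjusted p = 1.23e-06). Mbnl3 had the largest difference, 1.31 ± 0.23 (adjusted p = 7.48e-06), at low counts (0.586, 1.02 and 6.67 CPM in females, 0.145, 0.437 and 1.14 CPM in males), and its highest value was the library rich in ribosomal RNA, whose lymphocyte markers summed to 178 CPM. Without that library the Mbnl3 difference was 1.08 (adjusted p = 3.08e-05). Of the families, 12 of 20 hnRNPs, 4 of 10 SR proteins, 1 of 4 CLKs and 3 of 10 other regulators were higher in females.

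The fasting effect itself differed between the sexes for 6 of the 44 genes, against 12.4% of all genes. Fasted livers at CT40 entered this test under the sex of their gene columns, which the exon table contradicts in part. The largest such difference was that of Rbfox2. From CT12 to CT44 it ranged over 33.8, 41.8 and 50.6 CPM in control females and 29.5, 34.9 and 44.7 CPM in fasted females, and over 27.5, 29.9 and 35.02 CPM in control males and 24.6, 36.4 and 39.6 CPM in fasted males (18 libraries each). The fasting effect was -0.24 ± 0.05 in females (adjusted p = 8.42e-05) and 0.19 ± 0.05 in males (adjusted p = 0.00171), a difference of -0.42 ± 0.07 (adjusted p = 8.21e-05). Opposite signs stood behind its mean of -0.02.

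Hnrnpl rose in both sexes but more in females, by 0.44 ± 0.04 against 0.22 ± 0.04 (difference 0.23 ± 0.06, adjusted p = 0.00740). Hnrnpa1 did likewise, with 0.56 ± 0.07 against 0.24 ± 0.07 (difference 0.31 ± 0.10, adjusted p = 0.0297). Hnrnpab fell in males (-0.14 ± 0.04, adjusted p = 0.00176) and gave 0.07 ± 0.04 in females, a difference of 0.21 ± 0.05 (adjusted p = 0.00638). Srsf5 and Ptbp3 rose more in males, by 0.36 ± 0.05 against 0.15 ± 0.05 and by 0.40 ± 0.04 against 0.21 ± 0.04 (adjusted p of the difference = 0.0231 and 0.0195). Without male replicate 1 or male replicate 2 the test passed for 1 gene in place of 6, and without female replicate 1 for 10.

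In fed livers 19 of the 44 genes had a 24 h rhythm, against 41.8% of all genes tested for one. Peaks were spread over the whole cycle, with 5 genes peaking from CT0 to CT6 (Hnrnpa0, Hnrnpl, Hnrnpul1, Ptbp2 and Srsf5), 6 from CT6 to CT12 (Clk4, Hnrnpa1, Hnrnpd, Hnrnpdl, Hnrnpk and Srsf4), 5 from CT12 to CT18 (Clk3, Hnrnpab, Mbnl2, Srsf10 and Srsf11) and 3 from CT18 to CT24 (Esrp2, Hnrnpc and Hnrnpu). The fitted peak-to-trough differences were modest. Ptbp2 had the largest, 0.65 ± 0.10 on the log2 scale around a peak at CT4.96 (adjusted p = 5.82e-06), and Mbnl2 followed with 0.62 ± 0.08 and a peak at CT13.4 (adjusted p = 1.01e-07). Esrp2 swung by 0.50 ± 0.06 around a peak at CT22.3 (adjusted p = 1.88e-07).

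The AU-binding pair Hnrnpdl and Hnrnpd had near-equal rhythms, 0.49 ± 0.05 at CT8 and 0.49 ± 0.06 at CT8.13 (adjusted p = 4.93e-09 and 3.78e-08). Hnrnpc peaked at CT20.3, about opposite to them (0.48 ± 0.06, adjusted p = 4.18e-07). Among the SR proteins Srsf5 peaked at CT5.21 (0.37 ± 0.07), Srsf4 at CT9.97 (0.36 ± 0.07) and Srsf10 at CT17.1 (0.36 ± 0.08), with adjusted p = 0.000214, 6.76e-05 and 0.000825. Of the kinases, Clk4 peaked at CT9.69 and Clk3 at CT17.7 (0.28 ± 0.05 and 0.28 ± 0.05, adjusted p = 6.64e-05 and 3.02e-05), while Clk1 (0.17 ± 0.06, adjusted p = 0.0740) and Clk2 (0.06 ± 0.05, adjusted p = 0.660) did not pass.

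**Figure D4:**
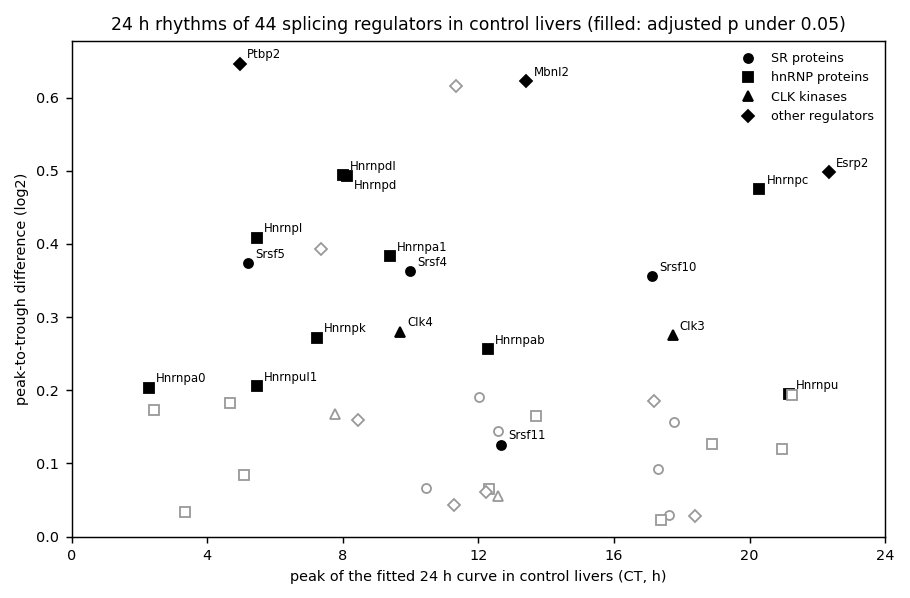
Peak time (horizontal axis, CT in hours) and peak-to-trough difference on the log2 scale (vertical axis) of the 24 h curve fitted to the 40 control libraries for each of the 44 genes. Filled symbols passed at an adjusted p under 0.05 and are named, and symbol shapes give the family. The 19 named genes are spread over the cycle, with Ptbp2, Mbnl2 and Esrp2 among the largest.

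The rhythm differed between fasted and fed livers for 11 of the 44 genes, against 23.2% of all genes, in a model that also allowed a linear change over time. They were Clk4 (adjusted p = 8.56e-05), Srsf6 (0.000125), Esrp2 (0.000154), Clk1 (0.000460), Mbnl2 (0.00226), Srsf4 (0.00248), Hnrnpr (0.00768), Srsf5 (0.0207), Hnrnph2 (0.0282), Hnrnph3 (0.0326) and Hnrnph1 (0.0463). From CT12 to CT44, Srsf6 swung by 0.16 in controls and by 0.63 in fasted livers, where it peaked at CT19.4. Clk4 peaked at CT9.85 in controls and at CT16.5 in fasted livers. Clk1, for which no control rhythm passed, swung by 0.33 around CT18.6 in fasted livers (adjusted p = 0.00137). Esrp2 moved from CT22.7 to CT4.75. The fasted livers cover little more than 1 cycle, so that a rhythm and the time course of the fast cannot be told apart in them.

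The exon table, which counts reads over numbered exon bins, shows which parts of these genes moved against the rest of the same gene. Of 42 of the 44 genes with at least 2 bins tested, 20 changed their exon usage with fasting, against 14.3% of all genes tested. These are 3 of 10 SR proteins, 11 of 19 hnRNPs, 3 of 4 CLKs and 3 of 9 other regulators. Hnrnpa0 and Esrp1 could not be tested. In the 3 exon columns of fasted livers at CT40 whose values were closest to another library, sex could not be relied on, and the fit took all 4 livers of that group together. Of 1178 bins of these genes, 40 were used more and 23 less in fasted livers, against 1.22% and 0.857% of all bins. Depth and the number of bins per gene were not matched between these genes and the rest, and without male replicate 2 the 20 genes became 10. Leaving out each replicate in turn, 7 of the 20 passed every time (Srsf7, Hnrnpa2b1, Hnrnpc, Hnrnpdl, Hnrnpu, Clk3 and Mbnl1), and each of the other 13 lost its call at least once. The bins of Hnrnpc, Hnrnpll and Rbfox2 could not be matched to the annotation. The others were matched by number alone, so that a bin may not be the same stretch in both builds. Usage at CT8, when both groups still had food, was not tested. Medians there were already apart for some of the bins below and not for others.

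Clk3 showed the clearest change. Its bin 27 is 2441 bases long and lies only in a transcript annotated as retained intron or non-coding. It held 2.79, 4.16 and 6.73% (lowest, median and highest of 36 libraries) of the exon counts of Clk3 in controls and 2.46, 6.70 and 8.56% in fasted livers. The change in usage was 0.62 on the log2 scale (adjusted p = 1.45e-19). In controls the share swung with the day as well, by 0.68 around CT16.6 (adjusted p = 0.00882). Bin 28 of Clk3 was used more (0.58, adjusted p = 0.000233) and bin 30, in coding sequence, less (-0.40, adjusted p = 0.00562). The level of Clk3 had moved by 0.07. In Clk1 a bin annotated as retained intron or non-coding, bin 16, rose in usage from a median of 0.862% to 1.12% (0.39, adjusted p = 0.000249). The alternative exon 4 of Clk1, shown above and counted as bin 26, held 3.17, 4.25 and 5.65% in controls and 2.27, 4.17 and 5.37% in fasted livers and did not pass (-0.04, adjusted p = 1). In Clk2 a bin annotated as retained intron or non-coding, bin 19, was used less, down to 0 counts in the lowest fasted library (-1.03, adjusted p = 0.000158).

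Bins of the poison exons of Srsf7 and Srsf3, shown above, were used more in fasted livers, where both genes had a lower level. These bins also lie in transcripts annotated as non-coding, so their counts do not single out inclusion of the poison exon. Going by bin number, in Srsf7 the poison exon is counted as bins 15 and 16. Bin 16 held 2.22, 4.15 and 6.23% of the exon counts in controls and 3.31, 5.40 and 7.80% in fasted livers (0.42, adjusted p = 1.33e-06), and bin 15 held 4.06, 6.46 and 8.83% and 5.38, 8.16 and 10.8% (0.35, adjusted p = 1.79e-05). Bin 9 of Srsf7, only in a transcript annotated as retained intron or non-coding, went the same way (0.61, adjusted p = 1.24e-06). That transcript also holds bin 15. Bin 3, in the untranslated end of the last exon, went the other way (-0.39, adjusted p = 1.33e-05). At CT8, before food was removed, the medians of bin 9 were already apart (1.09% in controls and 1.62% in the mice to be fasted). Those of bin 16 were 4.70 and 4.78%, and those of bin 15 were 6.91 and 7.44%. In Srsf3 the poison exon is counted as bins 13 to 15. Bin 15 held 2.04, 3 and 4.26% in controls and 1.69, 3.78 and 6.80% in fasted livers (0.36, adjusted p = 0.000384), bin 14 passed with 0.31 (adjusted p = 0.00829), and bin 13 did not (0.22, adjusted p = 0.333). The ranges of both genes overlap widely between the groups. For bin 15 of Srsf3 the medians at CT8 were 3.51% in controls and 4.14% in the mice to be fasted. The exon usage call of Srsf3 was lost without male replicate 1 or female replicate 2 (adjusted p up to 0.805), while that of Srsf7 passed in each such fit (adjusted p at most 0.000786). Srsf10, an SR protein whose level did not pass, used bin 8 more (0.43, adjusted p = 0.00103), and its call was lost without each of 3 replicates. Bin 8 of Srsf10 lies only in transcripts annotated as retained intron or non-coding. At CT8 it held a median of 1.32% in controls and 1.93% in the mice to be fasted, with ranges that overlapped.

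**Figure D5:**
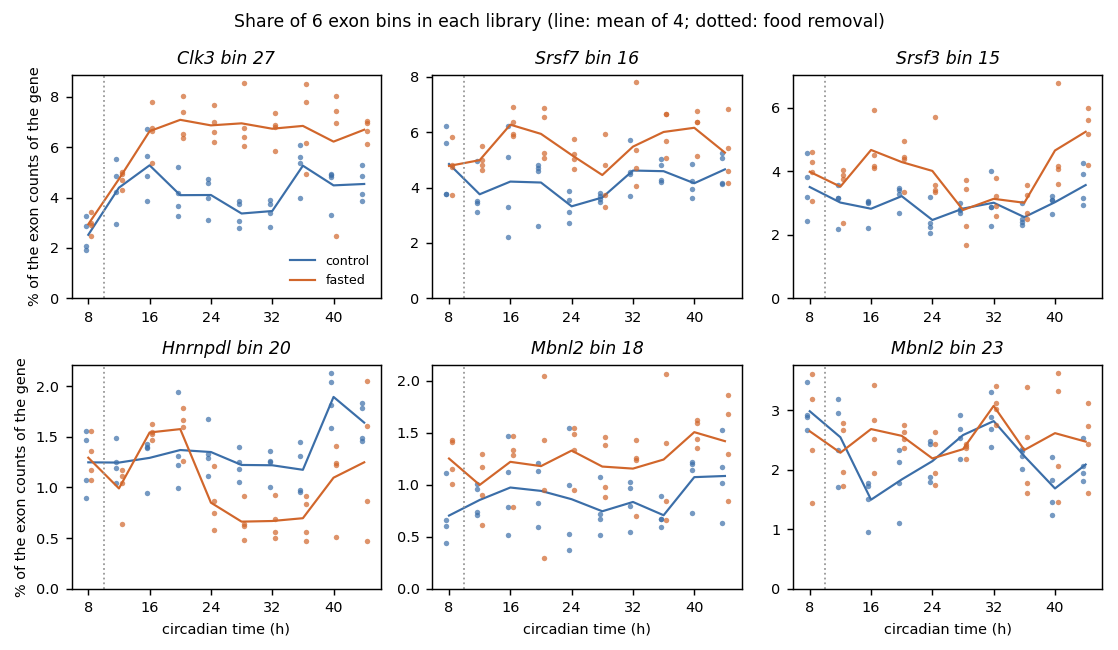
Share of 6 exon bins in the exon counts of their gene (vertical axis, percent) by circadian time (horizontal axis, hours) in every library. Points are single livers (blue control, orange fasted), lines are means of 4 and the dotted line marks food removal. Clk3 bin 27 and the poison exon bins of Srsf7 and Srsf3 lie higher in fasted livers at most times, Hnrnpdl bin 20 lies lower in fasted livers from CT24 on, and Mbnl2 bin 23 swings with time in controls.

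Among the hnRNPs the direction differed from gene to gene. In Hnrnpdl, whose level rose, 9 of 24 bins were used less and 0 more. Bin 20, found only in a transcript annotated for nonsense-mediated decay, fell from 0.948, 1.32 and 2.13% in controls to 0.4658, 0.920 and 2.05% in fasted livers (-0.53, adjusted p = 1.65e-05), and bins 12 and 23 fell as well (-0.49 and -0.54). In Hnrnpa1, which rose too, bin 15 lies only in a transcript annotated for nonsense-mediated decay. It held 7.70, 10.8 and 14.3% in controls and 5.36, 8.99 and 12.3% in fasted livers (-0.32, adjusted p = 0.00137). At CT8 the medians of this bin were 9.76% in controls and 8.26% in the mice to be fasted. Hnrnpl rose in level and used bin 22 more, the bin of its poison exon, which also lies in a transcript annotated as non-coding. Bin 22 held 0.422, 0.770 and 1.29% in controls and 0.415, 0.989 and 1.88% in fasted livers (0.36, adjusted p = 0.000295). Hnrnpl showed such a gap at CT8 as well, with food still present. Its bin 22 then held 0.497 to 0.601% in controls and 0.618 to 0.897% in the mice to be fasted. Its exon usage call was lost without each of 3 replicates (adjusted p up to 0.212), and that of Hnrnpa1 without either male replicate (up to 0.252).

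In Hnrnpc 8 of 29 bins were used more and 1 less. Bin 24 dropped from 0.450, 2.20 and 3.08% to 0.219, 1.38 and 2.53% (-0.74, adjusted p = 1.46e-17), and bins 25 and 21 rose by 0.66 and 0.57. At CT8, before food was removed, the medians of bins 24, 25 and 21 were 1.22, 0.708 and 0.915% in controls. In the mice to be fasted they were 0.986, 0.940 and 1.04%. Hnrnpu used 2 bins more that lie only in transcripts annotated as retained intron or non-coding (bins 28 and 29, 0.44 and 0.42, adjusted p = 3.92e-08 and 5.78e-07). At CT8 the medians of these bins were 0.499 and 0.498% in controls and 0.668 and 0.573% in the mice to be fasted. Hnrnph2 exchanged neighbouring untranslated bins, with bin 8 at -0.51 and bin 9 at 0.28 (adjusted p = 4.35e-07 and 0.0184). At CT8, with food still present, bin 8 held a median of 3.38% in controls and 2.67% in the mice to be fasted. For bin 9 these were 3.65 and 3.58%. The leading bins of Hnrnpa2b1 (bin 4, 0.31), Hnrnph3 (bin 12, 0.49) and Hnrnpr (bin 29, -0.21) passed with adjusted p = 2.73e-06, 0.00129 and 0.0332. Bin 4 of Hnrnpa3 passed as well (-0.80, adjusted p = 5.42e-05), but its share ran from 0.832% to 10.6% among control livers and from 0.325% to 10.99% among fasted ones. Hnrnpm had 1 bin used more.

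Mbnl2 used its alternative exon 6 more in fasted livers, where its level was higher, but the medians of usage were already apart before the fast. Exon 6, shown above and counted as bin 18, held 0.374, 0.859 and 1.54% of the exon counts in controls and 0.294, 1.32 and 2.07% in fasted livers (0.50, adjusted p = 4.73e-05). Such an exon is known to direct muscleblind proteins to the nucleus. At CT8, with food still present, bin 18 held a median of 0.630% in controls and 1.28% in the mice to be fasted. Exon 8 is split into bins 22 and 23, of which bin 22 passed (0.33, adjusted p = 0.00346) and bin 23 did not (0.23, adjusted p = 0.121). In Mbnl1 bin 42, annotated as retained intron or non-coding, held 1.37, 2.02 and 3.27% in controls and 1.77, 2.71 and 4.34% in fasted livers (0.37, adjusted p = 6.93e-06). The medians of this bin at CT8 lay the other way, at 2.82% in controls and 2.41% in the mice to be fasted. Rbfox2 had 1 bin used more, but its exon usage did not pass without each of 3 replicates (adjusted p up to 1) nor with an F test per gene (adjusted p = 0.0764). The call of Mbnl2 was lost without male replicate 2 or female replicate 1 (adjusted p up to 0.162).

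In fed livers, 26 bins of 13 of the genes changed their share over the day, of 1157 bins tested, against 1.28% of all bins. Exon 8 of Mbnl2 was among them. Its bin 23 held 2.99% of the exon counts in the mean of CT8 and 1.497% in that of CT16, with a fitted swing of 0.74 and a peak at CT6.19 (adjusted p = 0.000386). The level of Mbnl2 peaked later, at CT13.4. Bin 3 of Hnrnpc swung by 0.39 around CT7.86, an untranslated first-exon bin of Srsf5 (bin 12) by 0.52 around CT7.19, and an untranslated last-exon bin of Hnrnpk (bin 4) by 0.23 around CT10.2 (adjusted p = 2.01e-05, 7.29e-05 and 0.00109). Without female replicate 1, 7 bins passed in place of 26, and without each of the other replicates 13 to 16.

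Summed over all bins that lie in no protein-coding transcript, 10 of 34 genes had a larger such share in fasted livers (17.2% of all genes) and 4 a smaller one (4.53% of all genes). The median change was 0.058 over these genes and 0.081 over all genes, on the log2 scale. In Srsf7 the share was 11.5, 18.7 and 25.8% in controls and 15.6, 22.6 and 30.8% in fasted livers (0.35 ± 0.04, adjusted p = 1.47e-08). In Srsf3 it was 12.8, 17.99 and 26% and 11.6, 22.2 and 33.99% (0.25 ± 0.04, adjusted p = 1.03e-05). The others with a larger share were Hnrnph3 (0.45 ± 0.11), Mbnl2 (0.32 ± 0.07), Srsf10 (0.24 ± 0.08), Mbnl1 (0.21 ± 0.05), Hnrnpm (0.20 ± 0.08), Srsf4 (0.18 ± 0.05), Hnrnpa2b1 (0.17 ± 0.03) and Hnrnpu (0.10 ± 0.04).

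The share was smaller in Hnrnpdl, with 3.03, 4.28 and 5.67% in controls and 1.18, 3.29 and 5.28% in fasted livers (-0.48 ± 0.08, adjusted p = 5.65e-06), and in Hnrnpa1, with 11.6, 15.3 and 18.3% and 7.80, 12.8 and 17.7% (-0.28 ± 0.04, adjusted p = 1.03e-07). Clk2 and Clk4 also had a smaller share (-0.19 ± 0.05 and -0.12 ± 0.04, adjusted p = 0.00143 and 0.0285). In fed livers this share had a 24 h rhythm in 5 of 33 genes, Esrp2, Hnrnpl, Mbnl2, Hnrnpdl and Hnrnpa3, against 10.3% of all genes. In Hnrnpdl it peaked at CT18.97, far from the peak of its level at CT8, and in Hnrnpl at CT17.3, far from CT5.47.

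Other genes of the pathway were read from lists of known roles, to be set against the 29.5% of all genes that were higher and the 32.9% that were lower with fasting. Of 16 SR-related proteins and SR kinases, 8 rose and 5 fell with fasting, among them the speckle protein Son (0.26 ± 0.02, adjusted p = 5.72e-13) and, in the other direction, the SR protein kinase Srpk2 (-0.25 ± 0.03, adjusted p = 2.28e-08). Scaf11 rose by 0.24 ± 0.02, Srpk3 gave -0.49 ± 0.21 (adjusted p = 0.0404), and Tra2b, an SR-like activator with a poison exon, gave 0.00 ± 0.04. Of 34 further RNA-binding splicing regulators (Qk had no row of that symbol) 18 rose and 6 fell, with Celf2 (0.64 ± 0.05) and Pcbp2 (0.48 ± 0.03) highest and Rbm47 (-0.20 ± 0.07) and Ybx1 (-0.15 ± 0.02) lowest.

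In the core spliceosome 10 of 50 genes were higher and 23 lower, with a median of -0.07, beside 29.5% and 32.9% of all genes. The branch-site protein genes Sf3b1 (0.44 ± 0.03) and Sf1 (0.28 ± 0.04) led the rises, and the small partner genes Lsm6 (-0.55 ± 0.03) and Ppih (-0.46 ± 0.05) the falls. Of 15 genes of nonsense-mediated decay and the exon junction complex 10 rose and 1 fell (median 0.13), the kinase gene Smg1 by 0.39 ± 0.04, Upf3a by 0.26 ± 0.04 and the helicase gene Upf1 by -0.05 ± 0.02. Of 10 cold- and heat-inducible genes 5 rose and 0 fell (median 0.16). Cirbp, a cold-inducible RNA-binding protein, ranged over 7.73, 14.7 and 27.5 CPM in controls and 7.87, 22.2 and 62.3 CPM in fasted livers (0.64 ± 0.07, adjusted p = 6.81e-11), and Rbm3 over 12.2, 25.4 and 39.7 and 17.4, 31.98 and 59.8 CPM (0.43 ± 0.05, adjusted p = 1.56e-10). The chaperone gene Hspa8 rose too (0.60 ± 0.07). All values of these lists are mean log2 differences fasted minus control with their SE.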

How the data were processed

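Polyadenylated RNA of 80 mouse livers was sequenced by the authors, who deposited 1 table of raw counts per gene and 1 of raw counts per exon bin. The submitters' processing notes name bcl2fastq 2.20.0.422, Trimmomatic, HISAT2, DESeq2 and the GRCm39 build; the counting program is not given in the sources used here. Columns were matched to libraries by title. Exon columns were compared with gene columns: 77 of 80 were closest to their own library, and the 3 that were not lie in fasted livers at CT40. Which of the tables is mislabelled there was not tested. Between 8.28% and 25.9% of the counts of the exon table lay on no named bin and were left out.

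From the deposited counts, edgeR 4.0.16 (R 4.3.3) was run on all genes that passed filterByExpr, with TMM scaling, 1 mean per treatment, time and sex, and quasi-likelihood F tests with Benjamini-Hochberg adjustment over all genes. CPM values use TMM-scaled library sizes. Rhythms were fitted as a 24 h cosine and sine, and exon usage with diffSpliceDGE, Simes p per gene. The summed share of bins in no protein-coding transcript was added after the data were seen, with the summed bin counts of the gene as offset. Bins were matched by number to GENCODE M21, which has the same number of bins in 94.2% of 51079 genes. An equal number does not show that each bin is the same interval, and this was not tested.

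The 44 genes and the lists were chosen with earlier results of these data known. By rule, values by library are given for the genes with the largest called rises and falls in each family, all 4 Clk genes, and genes called between the sexes. Bins by library range are those with the smallest p in the genes with the clearest change, plus the poison exons and alternative exons shown. The single times at which values are given, and the Esrp2 values, were chosen after they were seen. DESeq2 1.42.0, limma 3.58.1, other scalings and filters, single sexes, left-out times and left-out replicates were tried as alternatives. The statistics were tested on simulated data. Same-numbered libraries of both treatments did not deviate together (20 pairs, median correlation 0.00193, 1 over 0.1) and were not paired. No pair of replicates was alike to within sampling noise (lowest chi-square per degree of freedom 14.8). Outside the rhythm fits, each gene's error rests on 2 mice per sex, treatment and time, taken over all groups together. In the fasting fits on the exon table, fasted CT40 is 1 group of 4 mice of both sexes.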

Additional observations from a re-analysis of the deposited data

Results flagged for a closer look

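One library stood apart from the other 3 of its group. Hnrnpd was at 75.2 CPM in fasted female 1 at CT44 and between 42.7 and 47.5 CPM in the others. Of 42 groups of 4 livers searched this was the 1 found, and chance alone marks about 1 in 20 such groups.

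The fasting effect differed between females and males in 6 genes (female minus male, log2): -0.21 for Srsf5, 0.31 for Hnrnpa1, 0.21 for Hnrnpab, 0.23 for Hnrnpl, -0.19 for Ptbp3 and -0.42 for Rbfox2. The adjusted p of each stands in the report.

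The fasting effect differed between the 9 times from CT12 to CT44 in 21 genes (edgeR's quasi-likelihood test). The adjusted p was 0.0289 for Srsf10, 0.0116 for Srsf2, 0.00168 for Srsf4, 0.000601 for Srsf5, 0.000163 for Srsf6, 0.0104 for Srsf7, 0.00348 for Hnrnpa1, 0.00571 for Hnrnpc, 0.00388 for Hnrnpd, 0.0151 for Hnrnph1, 0.0156 for Hnrnph2, 0.0461 for Hnrnpk, 0.00428 for Hnrnpr, 0.0372 for Hnrnpu, 0.00319 for Clk1, 0.00144 for Clk2, 0.000674 for Clk4, 3.64e-06 for Esrp2, 0.00772 for Mbnl2, 0.000119 for Ptbp2 and 0.0132 for Ptbp3.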

How the results depend on the processing

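Among the 30 called mean fasting effects the sign turned in 1 alternative, for Clk3 with females alone (-0.0095). Rbfox2, not called in the mean, turned and passed with males alone (0.19). The 8 genes called lower became 5 under upper-quartile scaling, 5 with females alone and 5 without sex in the model. Without a filter on low counts, 12 genes in place of 21 varied over the times and 13 in place of 21 differed between the sexes in controls. At CT8, 0 genes passed with limma voom and 0 without the library rich in ribosomal RNA. The cause of these shifts was not tested, beyond the larger number of genes tested without the filter.

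Leaving out 1 replicate number of a sex removes 20 libraries and leaves 1 mouse of that sex per group, assumed to vary like the others. The genes called then numbered 20 to 31 for the mean effect (lower 3 to 9), 42 to 105 calls over the single times in place of 98, 0 to 12 at CT8, 1 to 24 for variation over times, 1 to 10 for the sex difference in fasting, 5 to 24 for the sex difference in controls and 7 to 10 for the rhythm difference. They were 10 to 15 for exon usage, 7 to 16 bins for bin rhythms, 7 to 12 for the share outside protein-coding transcripts and 2 to 4 for its rhythm. Most of the lowest counts came without a male replicate.

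The replicate number as a block, which labels do not tie to a litter or batch, gave 30 genes for the mean effect, 94 calls at single times, 20 for variation, 6 for the sex difference in fasting, 18 between the sexes in controls, 18 rhythms, 12 rhythm differences and 20 for exon usage. The fall of Srsf3 no longer passed with DESeq2, DESeq2 size factors or upper-quartile scaling, and those of Srsf1 and Hnrnpf no longer passed under upper-quartile scaling. Every alternative that was listed was run.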
